A study of Mus musculus and Mus musculus
Rattus norvegicus with 30 samples.

Results

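The genes followed here, 10 in number, belong to the intestinal epithelium and are each known as a target of the homeobox factor Cdx2. They were Vil1, Cdh17, Isx, Hnf4g, Gpa33, Muc13, Muc2, Tff3, Krt20 and Sis, listed by name with earlier results of these data known, and they were read in every library of the series. All 10 were among the 34923 genes listed for mouse embryonic stem cells (mESCs) in replicate 2, and 7 of them were among the 19919 genes listed in replicate 1. In the rat counts, 8 of the 10 names were among 25245 genes.

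Cdx2 binds DNA as a homeodomain protein and is needed for intestinal identity. In the gut it keeps epithelial cells from adopting the fate of more anterior organs, and in the early embryo it acts in the trophectoderm. Mature enterocytes carry a brush border of microvilli that holds digestive enzymes, while goblet cells secrete gel-forming mucin and trefoil peptides.

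The question was whether mouse and rat Cdx2 act alike and whether both genomes respond alike. In mESCs, RNA was sequenced from 10 conditions with 2 libraries each: WT, mCDX2 OE (mouse Cdx2 overexpressed), rCDX2 OE (rat Cdx2 overexpressed) and 7 mutants of rat Cdx2. The mutants carry the changes 1, 2 and 3, by which the mouse DNA-binding domain differs from that of rat, alone or combined, as rCDX2_R1, rCDX2_R2, rCDX2_R3, rCDX2_R12, rCDX2_R13, rCDX2_R23 and rCDX2_R123. RMES cells, in which a haploid mouse and a haploid rat embryonic stem cell were fused, gave 2 WT libraries, 1 mCDX2 OE and 1 rCDX2 OE library, each counted on both genomes. Every construct was a Flag-tagged lentiviral transgene under a doxycycline-inducible Tet-On promoter in a stable line of its own, so a construct and its line cannot be told apart. The labels call the controls WT without saying whether they are parental or uninduced cells, and they do not say whether the 2 libraries of a condition came from separate cultures, so p-values measure only the spread between these libraries. The length of induction of the mutant lines is not given in the sources used here.

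The mESC WT libraries held 74960057 and 94686029 reads on the shared genes, and the 18 induced libraries 12698443 to 24315929. In RMES libraries, 36166038 to 41418817 reads fell on mouse genes and 29453412 to 35249756 on rat genes. Cdx2 itself was counted at 96 and 106 reads in mESC WT, at 2341 and 1959 with mCDX2 OE, at 1831 and 914 with rCDX2 OE, and at 597 to 2245 in the 14 mutant libraries. The level of Cdx2 in the mutants did not pass the test against mCDX2 OE and rCDX2 OE (log2 difference -0.26, standard error 0.27, adjusted p = 0.422, edgeR). Cdx2 was lower with change 3 in the additive model described further on (-0.74, standard error 0.26, adjusted p = 0.0367). It was also higher in replicate 1 than in replicate 2 in all 7 mutants, at 61.9 to 147 CPM against 37.2 to 68.8 CPM. All 18 induced libraries were above both WT libraries. In mESCs all reads were aligned to mm10, while rCDX2 OE and its mutants carry rat sequence. Whether Cdx2 reads of mouse and rat sequence were counted equally well was not tested.

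The strongest Cdx2 ChIP-seq peaks near the genes are printed here because they carry the binding on which the later sections turn. Each is the 300 bp at the centre of the highest peak within 30 kb of the gene start, for the 5 genes with the highest such peaks, read 5′ to 3′ from GRCm38 (mm10). Capitals mark each match to a Cdx motif, searched as NNATAAA with C or T first and C or A next on both strands, so that a match on the minus strand appears as its reverse complement. The Krt20 window lies in an intron, that of Isx downstream of the gene, and the other 3 upstream of theirs.
Krt20 intronic peak (chr11:99436710-99437009, plus strand): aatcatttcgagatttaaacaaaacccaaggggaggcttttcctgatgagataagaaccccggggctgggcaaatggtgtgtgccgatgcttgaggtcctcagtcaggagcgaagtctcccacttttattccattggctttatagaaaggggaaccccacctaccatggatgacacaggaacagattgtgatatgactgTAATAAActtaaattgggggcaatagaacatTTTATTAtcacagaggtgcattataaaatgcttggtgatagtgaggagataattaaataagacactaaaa
Isx downstream peak (chr8:74897500-74897799, plus strand): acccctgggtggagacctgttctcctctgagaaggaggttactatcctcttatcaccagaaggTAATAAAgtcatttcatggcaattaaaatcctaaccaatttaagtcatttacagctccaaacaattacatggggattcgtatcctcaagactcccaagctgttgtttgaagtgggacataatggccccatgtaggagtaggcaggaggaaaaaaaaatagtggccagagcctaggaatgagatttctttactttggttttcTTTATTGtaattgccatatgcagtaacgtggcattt
Sis upstream peak (chr3:72997648-72997947, plus strand): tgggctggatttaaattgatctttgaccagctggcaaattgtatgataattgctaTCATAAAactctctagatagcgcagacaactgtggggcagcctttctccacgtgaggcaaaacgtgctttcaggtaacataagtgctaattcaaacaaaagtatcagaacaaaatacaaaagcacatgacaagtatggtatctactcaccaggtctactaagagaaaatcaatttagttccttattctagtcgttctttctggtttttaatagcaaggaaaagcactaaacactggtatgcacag
Hnf4g upstream peak (chr3:3496994-3497293, plus strand): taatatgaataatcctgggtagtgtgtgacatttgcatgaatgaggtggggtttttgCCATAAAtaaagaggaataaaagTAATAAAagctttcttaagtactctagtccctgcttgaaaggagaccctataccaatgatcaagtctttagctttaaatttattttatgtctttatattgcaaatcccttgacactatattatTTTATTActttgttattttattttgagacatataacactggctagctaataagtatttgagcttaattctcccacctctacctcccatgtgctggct
Muc13 upstream peak (chr16:33764420-33764719, plus strand): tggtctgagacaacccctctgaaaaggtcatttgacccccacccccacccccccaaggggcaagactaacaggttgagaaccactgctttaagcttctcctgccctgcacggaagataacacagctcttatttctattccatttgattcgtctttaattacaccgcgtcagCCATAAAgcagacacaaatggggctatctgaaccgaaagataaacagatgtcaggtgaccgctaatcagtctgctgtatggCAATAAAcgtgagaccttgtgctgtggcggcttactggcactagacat
The Hnf4g window held 3 matches, those of Krt20, Isx and Muc13 held 2 each and that of Sis 1. Windows of this length at the centre of all 91665 mESC peaks held a match in 73.4% of cases, and windows at ATAC peaks without a Cdx2 peak in 12.7%. Across all 25 peaks near the 10 genes the share was 84% (21 of 25).

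In mESCs, a homeobox gene (Isx), a keratin (Krt20), a membrane mucin (Muc13) and the microvillus gene Vil1 rose with both intact Cdx2 proteins, and Gpa33 fell with both. Muc2 passed the test with rCDX2 OE and not with mCDX2 OE, and the difference between these did not pass. Of the 10 genes, 6 entered the test. Cdh17 had 0 to 5 reads in each of the 20 libraries and was filtered out as too low. Its level was 0.0114 to 0.0142 CPM in the deeper WT libraries and 0 to 0.242 in the mutants, with a median of 0.121. It was 0 to 0.13 CPM with mCDX2 OE and 0 to 0.0769 with rCDX2 OE. These differences of Cdh17 were not tested. Hnf4g, Tff3 and Sis were listed only in replicate 2, where they had 2, 0 and 4 reads in all over 10 libraries. No change was detectable for Hnf4g, Tff3 and Sis at this depth. Hnf4g (chr3:3508030-3658052, plus strand) encodes a nuclear receptor of enterocytes, Tff3 (chr17:31125306-31129646, minus strand) a trefoil peptide of goblet cells and Sis (chr3:72888557-72967863, minus strand) the brush border enzyme sucrase-isomaltase. Isx and Krt20 had few reads outside the mCDX2 OE and rCDX2 OE libraries, and counts over the 6 genes describe only genes that passed the filter. A gene was called where edgeR's quasi-likelihood test gave a Benjamini-Hochberg adjusted p under 0.05 and the level changed by more than 2-fold. Levels are CPM, counts scaled to a common library size with edgeR's TMM factors.

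With mCDX2 OE, 4 of the 6 were called higher and 1 lower, where 18.4% of all 16000 genes tested were called higher, 15% lower and 33.4% in either direction. With rCDX2 OE, 5 were called higher and 1 lower, against 19%, 15.4% and 34.5% of all genes. In the mutants, 1 to 3 of the 6 were called higher and 1 lower. The shares of all genes called higher, lower and in either direction were 10.1%, 13.1% and 23.2% for rCDX2_R1, 10.6%, 12.8% and 23.4% for rCDX2_R2 and 12.2%, 13.4% and 25.6% for rCDX2_R3. They were 10.6%, 13.1% and 23.7% for rCDX2_R12, 13.6%, 14.2% and 27.8% for rCDX2_R13, 13.8%, 14.9% and 28.7% for rCDX2_R23 and 14%, 14.9% and 28.9% for rCDX2_R123. For the mean of all 9 constructs, 2 were called higher and 1 lower, against 13.2%, 13.5% and 26.7%. The median log2 fold change of the 6 was 2.66 with mCDX2 OE and 2.87 with rCDX2 OE, beside medians of -0.03 and -0.04 over all genes tested. Both contrasts share the same WT libraries. Isx and Krt20 passed the filter only through the mCDX2 OE and rCDX2 OE libraries. Muc13 and Muc2 were under its cutoff in WT and passed only through induced libraries. A level above WT in some induced libraries was thus part of entering the test for each of them. The counts and medians of the contrasts against WT describe only genes that passed the filter, and the medians are no like-for-like comparison with all genes. Between mCDX2 OE and rCDX2 OE, 0 of the 6 were called at an adjusted p under 0.05 in edgeR (0.00625% of all genes higher, 0.0125% lower and 0.0188% in either direction), and 0 had an unadjusted p under 0.05. The log2 difference of mCDX2 OE over rCDX2 OE ranged from -0.78 (standard error 0.51) for Muc2 to 0.36 (standard error 0.45) for Isx.

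**Figure D1:**
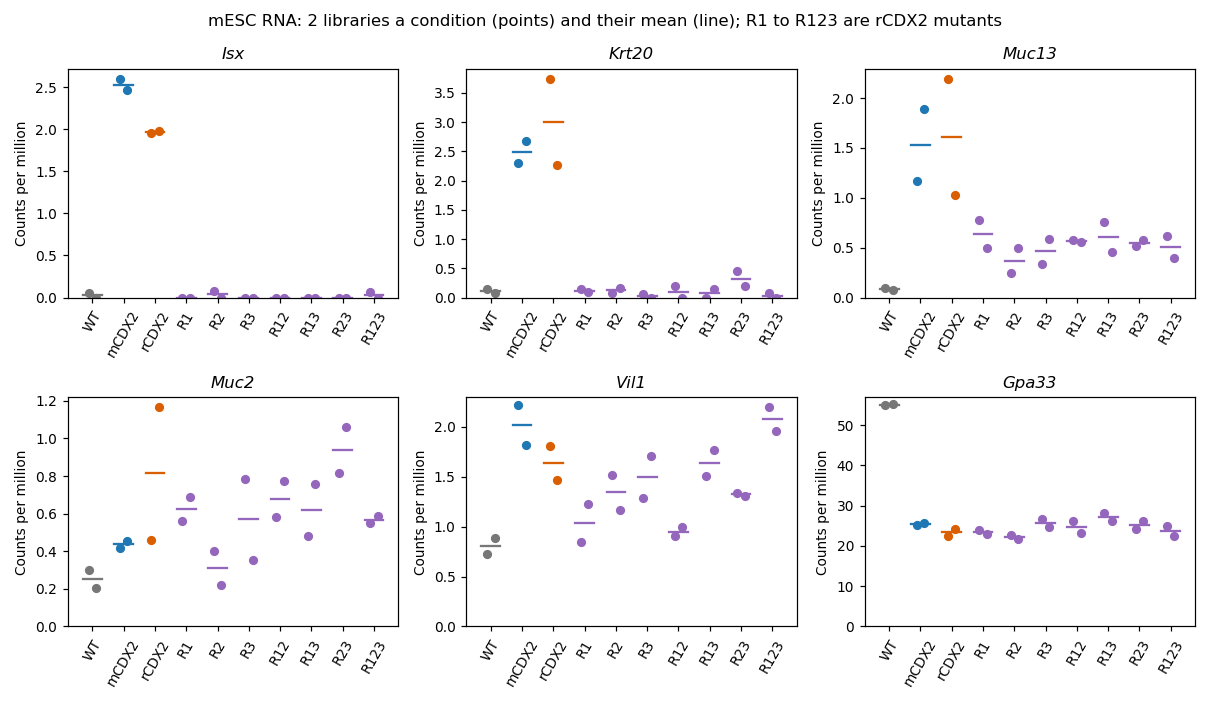
CPM of 6 genes in the 20 mESC RNA libraries, with 2 points and a mean line for each condition on axes that start at 0. Isx and Krt20 were high only in the 4 mCDX2 OE and rCDX2 OE libraries, Muc13 was intermediate in the mutants, and Gpa33 was lower in all 18 induced libraries than in WT.

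Isx (chr8:74873173-74893506, plus strand) encodes a homeobox factor of the gut that represses genes of vitamin A uptake. It was counted at 4 and 0 reads in WT, at 62 and 38 with mCDX2 OE and at 51 and 27 with rCDX2 OE. In CPM these were 2.59 and 2.47 with mCDX2 OE and 1.96 and 1.98 with rCDX2 OE, against 0.0567 and 0 in WT, with no overlap between groups. On the log2 scale the change was 6.36 (standard error 0.64, adjusted p = 3.68e-06) with mCDX2 OE and 6.0 (standard error 0.66, adjusted p = 7.15e-06) with rCDX2 OE in edgeR. Pooled over both, the level was 89.1 times that of WT, with a 95% counting interval of 34.2 to 331. The size rests on the 4 reads of WT replicate 1: without replicate 2 of both conditions the log2 change was 5.38 with mCDX2 OE and 4.97 with rCDX2 OE, and without replicate 1 it was 8.69 and 8.36 against a WT library at 0, with the call kept each time.

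The 14 mutant libraries had 0 to 1 reads of Isx and 2 reads in all, against 178 in the 4 libraries of mCDX2 OE and rCDX2 OE. The level with the intact proteins was 261 times that of the mutants (95% counting interval 71.3 to 2170). Isx was at 0 in 5 of the 7 mutants, and the 2 reads fell in replicate 1 of rCDX2_R2 and of rCDX2_R123. The mutant libraries thus stood at 0 to 0.0802 CPM, near WT and below each library of the intact proteins, and those of rCDX2_R123 with all 3 mouse changes were no exception.

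Krt20 (chr11:99428403-99438150, minus strand) encodes an intermediate filament protein of differentiated enterocytes and goblet cells. WT had 10 and 7 reads, mCDX2 OE 55 and 41, and rCDX2 OE 97 and 31, or 2.30, 2.67, 3.73 and 2.27 CPM in the 4 induced libraries against 0.142 and 0.0799 in WT. On the log2 scale the change was 4.44 (standard error 0.51, adjusted p = 1.03e-06) with mCDX2 OE and 4.76 (standard error 0.50, adjusted p = 3.69e-07) with rCDX2 OE. In the 14 mutant libraries Krt20 ranged from 0 to 6 reads with a median of 1.5, and no mutant was called against WT. The intact proteins gave a level 25.3 times that of the mutants (95% counting interval 16.8 to 39.6), again with no overlap.

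Muc13 (chr16:33794037-33819934, plus strand) encodes a transmembrane mucin of the gut surface. It was counted at 7 and 7 reads in WT, at 28 and 29 with mCDX2 OE, at 57 and 14 with rCDX2 OE and at 3 to 12 in the mutants, where the median was 9. These were 0.0992 and 0.0799 CPM in WT, 1.17 and 1.89 with mCDX2 OE, 2.19 and 1.03 with rCDX2 OE and 0.241 to 0.775 in the mutants. It rose with all 9 constructs, by a log2 fold change of 3.99 with mCDX2 OE (standard error 0.47), 4.17 with rCDX2 OE (standard error 0.46) and 2.07 to 2.73 in the mutants, with adjusted p of 5.43e-07 to 0.00971. The mutants thus lay between WT and the intact proteins and overlapped with neither. Without replicate 2 of rCDX2_R2 and WT its log2 fold change was 1.23 (adjusted p = 0.394), without replicate 2 of rCDX2_R3 and WT it was 1.70 (adjusted p = 0.139), and without replicate 1 of rCDX2_R123 and WT it was 2.21 (adjusted p = 0.0648).

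Vil1 (chr1:74409376-74435559, plus strand) encodes villin, which bundles the actin core of microvilli. WT had 51 and 78 reads, mCDX2 OE 53 and 28, rCDX2 OE 47 and 20, and the mutants 12 to 35. At the depth of each library these were 0.723 and 0.891 CPM in WT, 2.22 and 1.82 with mCDX2 OE, 1.81 and 1.47 with rCDX2 OE and 0.845 to 2.20 in the mutants. On the log2 scale the change was 1.33 (standard error 0.24, adjusted p = 0.000119) with mCDX2 OE and 1.03 (standard error 0.25, adjusted p = 0.00132) with rCDX2 OE. The second was lost without replicate 1 of rCDX2 OE and WT (0.72, adjusted p = 0.126). Among the mutants, rCDX2_R13 (1.02) and rCDX2_R123 (1.35) were called, and rCDX2_R2, rCDX2_R3 and rCDX2_R23 passed the p-value and not the fold threshold. The call of rCDX2_R13 was lost without replicate 1, at 0.98.

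Muc2 (chr7:141690340-141754693, plus strand) encodes the gel-forming mucin of goblet cells. It had 21 and 18 reads in WT, 10 and 7 with mCDX2 OE, 12 and 16 with rCDX2 OE and 4 to 22 in the mutants. In CPM these were 0.298 and 0.206 in WT, 0.418 and 0.455 with mCDX2 OE, 0.461 and 1.17 with rCDX2 OE and 0.222 to 1.06 in the mutants, where 1 library of rCDX2_R2 fell in the range of WT and the others lay above it. On the log2 scale the change was 0.79 (standard error 0.50, adjusted p = 0.171) with mCDX2 OE and 1.56 (standard error 0.46, adjusted p = 0.00588) with rCDX2 OE. Of the mutants, 6 were called, with a highest log2 fold change of 1.92 in rCDX2_R23. Each of these calls rested on few reads. The call with rCDX2 OE was lost without replicate 2 (0.62, adjusted p = 0.405), each of the 6 mutant calls was lost without 1 of the replicates, and DESeq2 did not make those of rCDX2_R1, rCDX2_R3, rCDX2_R13 and rCDX2_R123. That of rCDX2_R123 had an adjusted p of 0.0499.

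Gpa33 (chr1:166130238-166166510, plus strand) encodes the A33 antigen, an immunoglobulin-like surface protein of intestinal epithelium. It was the only one of the 10 with a sizeable level in mESC WT, at 3877 and 4831 reads, or 54.9 and 55.2 CPM. Per kilobase of gene model its mean level in WT was 20 CPM, against 0.227 for Vil1 and 0.0575 for Krt20. With mCDX2 OE it had 25.1 and 25.6 CPM, with rCDX2 OE 22.5 and 24.3, and in the mutants 21.8 to 28.2 with a median of 24.4. Gpa33 fell with all 9 constructs, by a log2 fold change of -1.31 to -1.02 with adjusted p of 4.48e-09 to 7.58e-08, and all 18 induced libraries lay below both WT libraries. The fold of rCDX2_R13 was just past the threshold, at -1.02, and was -0.96 without replicate 2. The 3 genes whose log2 CPM were most like those of Gpa33 over the 20 libraries were Gm17139 (Pearson r 0.973), Lrrc8dos (0.972) and Anxa11os (0.966), where the points share the split of WT from induced libraries.

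The 7 mutants were compared as a mean with the mean of mCDX2 OE and rCDX2 OE, a contrast chosen after the counts of Isx and Krt20 were seen. At an adjusted p under 0.05, 4 of the 6 genes were lower in the mutants, where 64% of all genes were called in either direction, 30.6% higher and 33.4% lower. The log2 differences were -7.90 for Isx (standard error 0.52, adjusted p = 1.02e-07), -4.90 for Krt20 (0.34, 2.51e-09), -1.60 for Muc13 (0.24, 2.21e-05) and -0.43 for Vil1 (0.15, 0.0195). Isx and Krt20 entered this test only through the mCDX2 OE and rCDX2 OE libraries, so a lower level in the mutants was part of entering it. Their p-values and their share in the count are thus description only. Gpa33 (0.02, standard error 0.05) and Muc2 (0.06, standard error 0.30) did not pass. That of Vil1 was not called by DESeq2 (adjusted p = 0.086), without replicate 1 of mCDX2 OE (0.139) or without replicate 1 of rCDX2 OE (0.169). The median over all genes was -0.01, and 12.1% of all genes were lower by over 2-fold. A joint test of differences among all 9 constructs called 4 of 6 (Vil1, Isx, Krt20 and Muc13) against 56.9% of all genes, where the same limit holds for Isx and Krt20. A joint test among the 7 mutants alone called 0 of 6 in edgeR against 22.5%, with Vil1 at an unadjusted p of 0.0209. Isx had 2 reads and Krt20 26 in all over the 14 mutant libraries, too few for this test to show whether the mutants act alike on them. Of the 13 pluripotency genes, 11 were higher in the mutants than with the intact proteins, and their summed level was 4480 to 5580 CPM in the mutants, 3590 to 3960 with mCDX2 OE and rCDX2 OE and 4760 to 4810 in WT, with none of them at 0. The part of this difference between the lines in the values of Isx and Krt20 was not tested.

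In an additive model of the 3 changes over the 16 libraries of rCDX2 OE and its mutants, no gene of 15114 (0%) was called for change 1 or change 2 in edgeR. At an unadjusted p under 0.05, Isx and Krt20 were lower with each of those changes (Isx at 9.68e-05 and 0.000334, Krt20 at 0.00237 and 0.0438). For change 3, 2 of the 6 were called lower (18.4% of all genes lower, 18.2% higher and 36.6% in either direction), Isx by -4.88 (standard error 0.96, adjusted p = 0.000865) and Krt20 by -2.28 (standard error 0.84, adjusted p = 0.0417). Neither passed in DESeq2 (adjusted p = 0.527 and 0.101), and that of Krt20 was lost when any of 9 of the 16 libraries was left out. Cdx2 itself was called lower with change 3 in the same model (-0.74), and its part in these values was not tested. The log2 change of Isx was -4.87 for change 1 (standard error 0.96) and -4.08 for change 2 (standard error 0.91). That of Krt20 was -2.98 (standard error 0.84) and -1.8 (standard error 0.83). For both genes, change 1 thus had a size like that of change 3 or larger. Differences between the 3 changes were not tested, so the calls do not show that change 3 goes with lower levels than the others. Both genes entered this test only through rCDX2 OE, the only condition in the model without a change. The model left out mCDX2 OE, whose DNA-binding domain carries all 3 changes. Its mean levels were 2.53 CPM for Isx and 2.48 CPM for Krt20, against 1.97 and 3 CPM with rCDX2 OE. The values of the model thus do not show that the changes as such lower these genes. Isx had 0 or 1 reads in every mutant library, whether 1, 2 or 3 changes were present, so its levels were not additive over the changes.

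The wider set of intestinal genes was read from lists of names, whose counts stand beside 18.4% of all genes called higher and 15% lower with mCDX2 OE and a median of -0.03. Of 24 regulators of intestinal fate, 21 were tested in mESCs and 11 were called higher and 4 lower with mCDX2 OE. Of 33 brush border and enterocyte genes, 23 were tested and 7 were called higher and 4 lower. Of 23 secretory-cell genes only 3 were tested, with 1 higher and 1 lower, and of 20 further epithelial genes 14 were tested, with 8 higher and 1 lower. The list medians were 1.13, 0.18, 0.57 and 1.35 on the log2 scale. Markers of other cell types also moved: 8 of 15 trophoblast, 7 of 14 visceral endoderm and 8 of 14 posterior mesoderm genes tested were called higher with mCDX2 OE, and 2, 1 and 3 lower. Their summed levels went from 870 to 882 CPM in WT to 913 to 1010 with mCDX2 OE and rCDX2 OE for trophoblast, from 23.3 to 23.6 to 76.6 to 88.5 for visceral endoderm and from 9.44 to 10.4 to 44.3 to 55.3 for posterior mesoderm. In bulk RNA, more cells of a type and more RNA per cell cannot be told apart, and several of these lineages share genes with the gut. The part of these cells in the members' values was not tested.

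**Figure D2:**
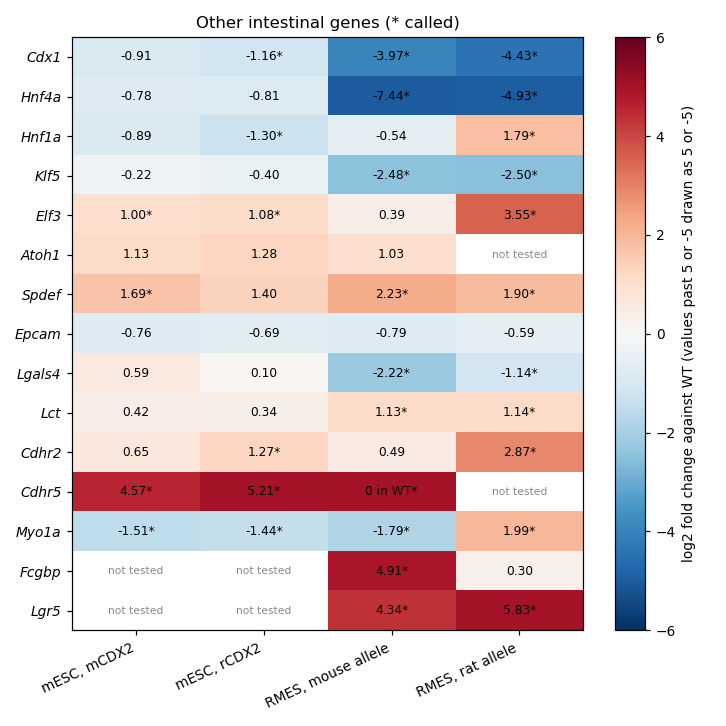
Log2 fold changes against WT of named intestinal genes that are not among the 10, in mESCs with mCDX2 OE and rCDX2 OE and on each allele of RMES cells, with an asterisk for a call and the colour by fold change, held at 5 beyond 5. Cdhr5 rose in 3 of the 4 comparisons, and Cdx1 and Hnf4a fell in both RMES columns.

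Cdhr5, a protocadherin that links microvilli at their tips, rose from 1 and 2 reads in WT to 11 and 11 with mCDX2 OE and 22 and 13 with rCDX2 OE (adjusted p = 2.93e-05 and 2.88e-06). Elf3, an epithelial ETS factor, rose by 1.0 (just past the threshold) with mCDX2 OE and 1.08 with rCDX2 OE on the log2 scale. Cdx1, the closest relative of Cdx2, had -0.91 with mCDX2 OE, under the fold threshold, and fell by 1.16 on the log2 scale with rCDX2 OE. Myo1a, the myosin of the brush border, fell by 1.51 and 1.44. Hnf4a, a nuclear receptor of gut and liver, had -0.78 and -0.81 and was not called. Fcgbp and Lgr5 were too low to be tested in mESCs. The brush border genes thus did not move as one, with Cdhr5 and Vil1 higher and Myo1a lower.

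In RMES cells, WT already had 4187 and 4541 Cdx2 reads on the mouse and 12384 and 13178 on the rat genome. With mCDX2 OE, 40590 reads fell on the mouse and 1770 on the rat gene. With rCDX2 OE, 186 fell on the mouse and 33680 on the rat gene. Each induced library thus had more reads than WT on the genome of its transgene and fewer on the other, and Cdx2 did not pass the test between the groups on either (adjusted p = 0.136 and 0.942). The mCDX2 OE and rCDX2 OE libraries were used as replicates of an induced group, as the study's methods do, and set against both WT libraries.

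On the mouse allele, all 6 of the genes that entered the test were called, 5 higher and Gpa33 lower, where 28.3% of all 16887 genes were called higher, 16.1% lower and 44.5% in either direction. On the rat allele, 5 entered and 4 were called, 3 higher and Muc13 lower, against 28.3%, 14.2% and 42.5% of 14627 genes. The median log2 fold changes were 2.14 and 2.35, also with Krt20 (mouse) and Cdh17 (rat) set to their bounds, and those of all genes 0.08 and 0.07. Some genes with few or no WT reads passed the filter only through the induced libraries. They were Krt20, Muc2, Isx and Vil1 on the mouse allele and Cdh17, Isx and Gpa33 on the rat allele. A rise of such genes was part of entering the test. Muc13 on the rat allele passed only through the WT libraries, so its fall was part of entering as well. These counts and medians thus describe only genes that passed the filter. Muc2 and Sis are not among the rat gene names. The rat gene named Si had 0 reads in 3 libraries and 1 in the rCDX2 OE library.

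**Figure D3:**
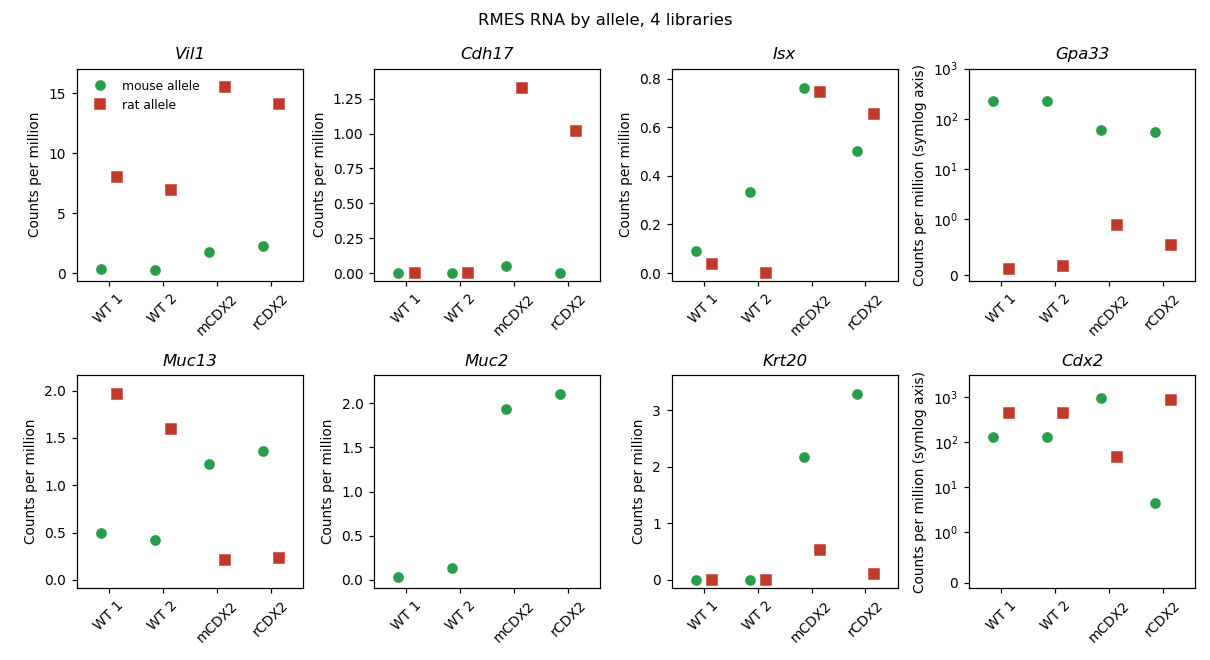
CPM of 7 of the genes and of Cdx2 in the 4 RMES libraries, with circles for the mouse and squares for the rat allele and a symmetric log axis for Gpa33 and Cdx2. Muc13 was higher with induction on the mouse and lower on the rat allele, Gpa33 the reverse, and Cdh17 was detected with induction almost only on the rat allele.

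Cdh17 (chr4:11758147-11817895 on the mouse plus strand) encodes the liver-intestine cadherin, an adhesion protein of enterocytes. On the rat allele it had 0 reads in both WT libraries and 50 and 39 with mCDX2 OE and rCDX2 OE, a level at least 11.2-fold higher when 3 counts per library are taken for WT (adjusted p = 1.74e-06). On the mouse allele it had 0 and 0 reads in WT and 2 and 0 in the induced libraries, and it did not enter the test. The difference between the alleles could not be fitted, because WT was at 0 on both.

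Krt20 was at 0 reads on both alleles in both WT libraries. On the mouse allele it reached 91 reads with mCDX2 OE and 137 with rCDX2 OE, at least 30.9-fold higher (adjusted p = 3.41e-07). On the rat allele it had 20 and 4 reads and was filtered out of the test. Its mean rat level was at least 3.04-fold that of WT, and this rests on the mCDX2 OE library, since the 4 reads of rCDX2 OE lie near the floor. Muc2, counted only on the mouse allele, went from 1 and 5 reads to 81 and 88, a ratio of 23 (95% counting interval 10.3 to 63.5), with a log2 fold change of 4.47 (standard error 0.46, adjusted p = 1.35e-06). Leaving out each library in turn gave changes of 3.82 to 5.88.

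Gpa33 had 7420 and 8186 reads in WT on the mouse allele and 2532 and 2290 after induction, a log2 fold change of -1.99 (standard error 0.06, adjusted p = 2.2e-11). On the rat allele it was nearly silent in WT, at 3 and 5 reads, and had 34 and 21 after induction, a log2 fold change of 2.35 (standard error 0.54, adjusted p = 0.000841). The groups did not overlap on either allele. After induction the mouse allele still gave 54.8 to 60.4 CPM and the rat allele 0.549 to 0.906. The gene models differ in length, and per kilobase the means were 21 CPM (mouse) and 0.676 CPM (rat).

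Muc13 moved in the opposite sense. On the mouse allele it had 16 and 15 reads in WT and 51 and 57 after induction, a log2 fold change of 1.5 (standard error 0.33, adjusted p = 0.00103). On the rat allele it had 54 and 48 reads in WT and 8 and 9 after induction, a log2 fold change of -2.97 (standard error 0.38, adjusted p = 2.67e-06).

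Vil1 was higher after induction on both alleles, from 11 and 9 to 75 and 93 reads on the mouse allele and from 219 and 209 to 582 and 540 on the rat allele. On the log2 scale the change was 2.76 (standard error 0.34, adjusted p = 8.24e-06) on the mouse allele and 0.99 (standard error 0.13, adjusted p = 2.98e-06) on the rat allele, where it passed the p-value and missed the fold threshold. Per kilobase of gene model, the rat allele in WT stood at 2.43 and 2.11 CPM and the mouse allele at 0.0955 and 0.0707. The mouse allele thus started lower and rose by the larger fold.

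Isx had 3 and 12 reads in WT on the mouse allele and 32 and 21 after induction, a log2 fold change of 1.52 (standard error 0.53, adjusted p = 0.0182). That call was lost in DESeq2 (adjusted p = 0.126), without the filter on low counts (0.0723), without WT replicate 1 (0.181) and without the mCDX2 OE library (0.11). On the rat allele it went from 1 and 0 to 28 and 25 reads, a ratio of 40.1 with a 95% counting interval of 6.89 to 1610 (log2 fold change 5.05, adjusted p = 2.8e-05). Without WT replicate 1, which held the only WT read, the change was 7.63, and without WT replicate 2 it was 4.12. Hnf4g and Tff3 stayed at 0 to 2 reads on both alleles and Sis at 0 on the mouse allele, so a response of these genes was not detectable.

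**Figure D4:**
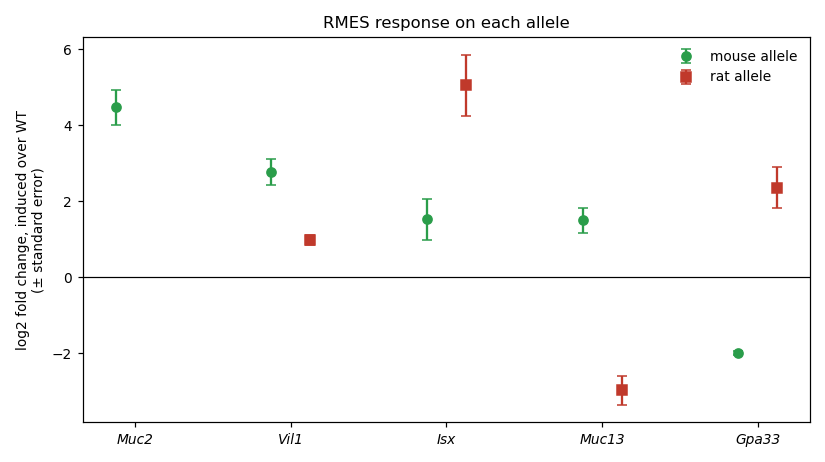
Log2 fold change of induced over WT RMES cells with its standard error, for the 5 genes with a fitted value that does not rest on a group at 0, by allele. Gpa33 and Muc13 lie on opposite sides of 0 on the mouse and rat alleles.

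The response of the rat allele was tested against that of the mouse allele in 1 model with the library as a block, over 13605 genes paired by an identical name. Of the 6 genes that entered, 4 were called at an adjusted p under 0.05, where 31.8% of all genes were called higher, 30.3% lower and 62.1% in either direction. The rat minus mouse difference in log2 fold change was 4.36 for Gpa33 (standard error 0.37, adjusted p = 4.54e-10) and -4.44 for Muc13 (0.56, 2.62e-07). It was -1.75 for Vil1 (0.35, 0.000145) and 3.57 for Isx (1.35, 0.0251). Cdh17 and Krt20 could not be fitted. The difference of Isx was not called by DESeq2 (adjusted p = 0.0879), without WT replicate 2 (1.41, adjusted p = 0.559) or without the rCDX2 OE library (3.37, adjusted p = 0.052). Reads that match both genomes equally well are not described by the study, and their part in these values was not tested.

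In the wider set, 19 of 24 regulators were tested on the rat and 20 on the mouse allele, with 8 and 10 called higher and 6 and 4 lower. Of all genes, 28.3% were called higher on each allele and 14.2% (rat) and 16.1% (mouse) lower. Of the brush border genes, 13 of 18 tested were called higher and 1 lower on the rat allele, and 11 of 22 higher and 6 lower on the mouse allele, with median log2 fold changes of 2.30 and 0.77. Cdhr5 went from 0 and 0 to 119 and 99 reads on the mouse allele, at least 29.5-fold higher, and from 0 and 1 to 14 and 10 on the rat allele, where it was not tested. Lgr5, a receptor of intestinal stem cells, went from 2 and 0 to 25 and 30 reads on the mouse allele and from 2 and 2 to 149 and 168 on the rat allele, and was called on both. Cdhr2, the partner of Cdhr5 at the microvillus tip, rose by 2.87 on the rat allele and had 0.49 on the mouse allele. Myo1a fell by 1.79 on the mouse allele and rose by 1.99 on the rat allele, a difference of 3.81 (standard error 0.43, adjusted p = 4.95e-08). Hnf4a had -7.44 and -4.93 and Cdx1 -3.97 and -4.43, and both fell on both alleles. Lct, the brush border enzyme lactase, went from 17 and 16 to 53 and 36 reads on the mouse allele (1.13, adjusted p = 0.0113) and from 21 and 30 to 87 and 62 on the rat allele (1.14, adjusted p = 0.00294). Alpi, an intestinal alkaline phosphatase, and Fabp2, a fatty acid binding protein, had 0 reads in all RMES libraries on both alleles, and Fabp1, of the same family, had 1 read in all. The summed level of pluripotency genes was 7920 to 7930 CPM in WT and 3120 to 3130 CPM after induction on the mouse allele, and 5670 to 5730 and 1930 to 2060 CPM on the rat allele. Summed visceral endoderm genes were at 111 to 114 CPM in WT and 44.3 to 45.4 CPM after induction on the mouse allele, with Ttr, Cer1 and Fgb at 0, and at 150 to 155 and 73.6 to 75.7 CPM on the rat allele. Summed posterior mesoderm genes were at 172 to 181 and 41.7 to 45.5 CPM on the mouse allele and at 50.2 to 52.5 and 21.5 to 23.1 CPM on the rat allele. Of 15 trophoblast genes tested on each allele, 8 (mouse) and 9 (rat) were called higher, and 2 and 3 lower. The summed level of the trophoblast genes was 1200 to 1230 CPM in WT and 1040 to 1060 CPM after induction on the mouse allele. On the rat allele it was 396 to 402 and 499 to 512 CPM. The part of such cells in the members' values was not tested.

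The 10 gene starts were then searched for Cdx2 ChIP-seq peaks within 30 kb. In mESCs, 25 peaks lay near 9 of the 10 genes, with a median of 2.5 a gene, and Muc2 had none. Among all 21897 protein-coding genes with a position, 72.4% had at least 1 such peak and the median was 1. A count of 3 or more was reached by 5 of the 10 genes and by 28.6% of all genes. ChIP and ATAC have 1 library a condition, no input library was used here, and peaks were called on merged reads, so no test was made and intervals cover counting error only.

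**Figure D5:**
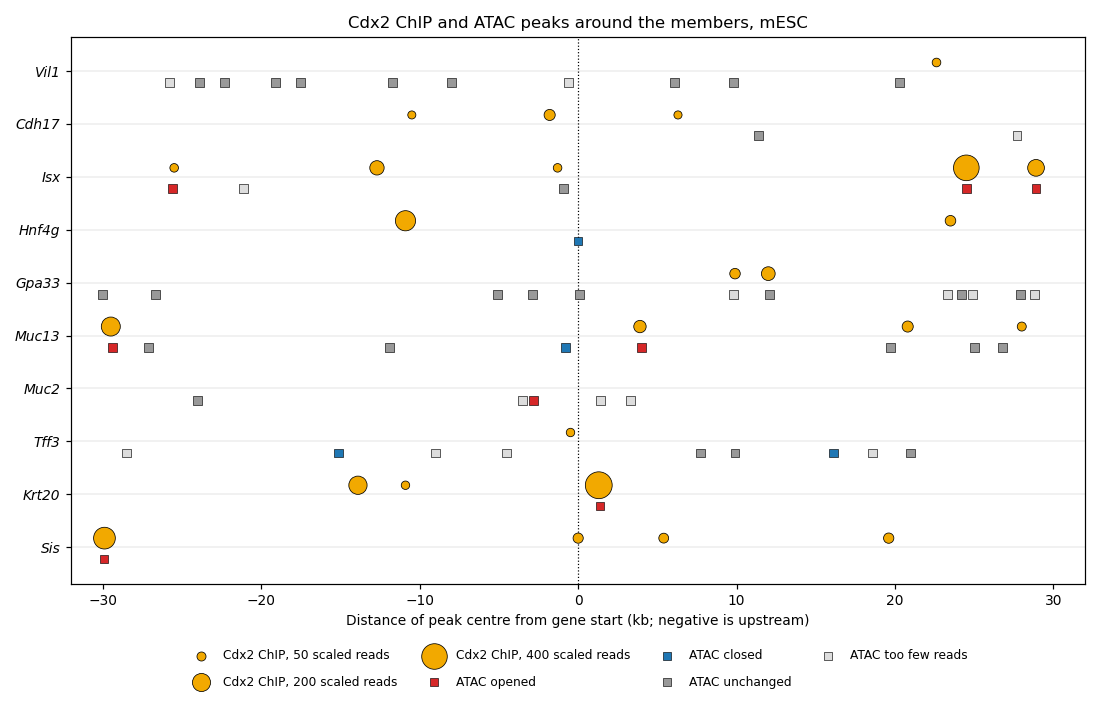
Cdx2 ChIP-seq peaks (circles, area by scaled reads of both libraries) and ATAC-seq peaks (squares, coloured by the change from WT to mCDX2 OE) within 30 kb of the start of each gene, by distance in kb. The largest circles lie 1.3 kb inside Krt20 and 24.5 kb from the start of Isx, each over an opened ATAC peak.

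The highest peak lay in an intron of Krt20, 1.3 kb from its start (chr11:99436480-99437240), with 224 reads for mCdx2 and 216 for rCdx2, at the 97.1 percentile of all mESC peaks. That of Isx lay 24.5 kb from the start and past the gene's end (chr8:74897411-74897889), with 221 and 183 reads, at the 96.4 percentile. That of Sis lay at -29.9 kb (chr3:72997438-72998158) with 150 and 139 reads. In each of the 3 the Cdx2 motif matches stand in the windows printed above. Hnf4g had a peak at -10.9 kb with 133 and 116 reads and Muc13 one at -29.5 kb, at the 87.3 percentile. The median peak near the genes was at the 34.7 percentile of height, and those of Krt20, Isx and Sis were the 3 above the 90th. Sis and Hnf4g thus had peaks of this height beside almost no reads of RNA. Of the 2 peaks near Gpa33, 9.9 and 12.0 kb inside the gene, the higher had 62 and 54 reads. The only peak near Vil1 had 26 and 20 reads, the 3 near Cdh17 at most 43 and 33, and the 1 near Tff3 25 and 19. At 2 of the 4 Muc13 peaks, those 20.8 and 28.0 kb from its start, the nearest gene start was that of Itgb5.

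The log2 ratio of rCdx2 over mCdx2 reads, scaled to the same total, ranged from -0.60 to 0.61 over the 25 peaks, and 0 passed 2-fold, as 0.912% of all mESC peaks did. In RMES cells, 12 peaks on the mouse genome lay near 7 of the 10 genes (63.7% of all genes had one), with log2 ratios of -0.89 to 0.46, and 0 passed 2-fold (2.08% of all peaks). All 12 overlapped a mESC peak. Of the 25 mESC peaks, 12 (48%) overlapped an RMES peak, against 64.8% of all mESC peaks. The RMES peaks of Krt20 and Isx were among them, and Vil1, Muc2 and Tff3 had none. Rat peaks were not assigned to genes here, since no rat gene positions were used.

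ATAC-seq, which reads where chromatin is open, gave 55 peaks near the 10 genes in WT and mCDX2 OE mESCs, of which 40 had at least 40 scaled reads. By a scaled ratio over 2, 8 of the 40 (20%) were opened with mCDX2 OE, against 13.7% of all such peaks, and 4 (10%) were closed, against 20.5%. The opened peaks lay near Isx (3), Muc13 (2), Krt20, Sis and Muc2 (1 each), and all but that of Muc2 overlapped a Cdx2 peak. Among all opened peaks 58.3% did so, and among the other peaks tested 7.63%. An opened peak with a Cdx2 peak lay near 4 of the 10 genes and near 16.2% of all genes.

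The Krt20 intronic peak had 3 ATAC reads in WT and 56 with mCDX2 OE, a scaled ratio of 13.8 with a 95% counting interval of 4.48 to 68.8. The Isx peak 24.5 kb from the start had 3 and 101 reads, a ratio of 24.8 (8.26 to 122), and the Isx peak 28.9 kb from the start 8 and 99, a ratio of 9.13 (4.46 to 21.7). The Sis peak had 0 and 47 reads and was at least 11.6-fold higher when WT is set to 3 reads. The 2 genes with the largest gains in RNA in mESCs, Isx and Krt20, were thus beside opened and bound sites, and so was Sis, whose RNA was not detected there in replicate 2 with either intact protein. The opened Muc13 peaks had smaller ratios, of 2.7 (1.73 to 4.34) at -29.4 kb and 2.48 (1.24 to 5.40) at 4.0 kb, and that of Muc2 at -2.8 kb had 2.21 (1.09 to 4.86). None of the 8 tested peaks of Gpa33 passed 2-fold, nor did any of the 9 of Vil1, where a peak 0.6 kb upstream with 8 and 32 reads fell short of the read minimum. The Hnf4g peak at its start was closed, with 38 and 24 reads, as was 1 Muc13 peak 0.8 kb upstream with 45 and 25. Near Tff3, 2 peaks were closed, the larger with 171 and 35 reads at 16.1 kb.

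Promoter windows, from 250 bases before to 50 after the RefSeq gene start on GRCm38, were held for 7 of the 10 genes (8 windows). A match to the motif stood in 4 of the 8, against 14.4% of all 32851 promoter windows. Those 4 were of Gpa33, Krt20, Muc13 and Sis, which held 2. The windows of Isx, Muc2 and Vil1 held none.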

How the data were processed

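Members and lists were chosen with earlier results of these data known. The authors deposited raw counts for every gene and peak. The authors aligned RNA-seq reads to mm10 with STAR 2.7.0d and counted them by strand per gene with featureCounts; the annotation was Ensembl without pseudogenes. RMES reads were assigned to mm10 or rn6 by edit distance. ATAC-seq and ChIP-seq reads were aligned with Bowtie2 2.3.4.3, and peaks were called with MACS2 on merged reads. Whether ATAC-seq reads were shifted is not given in the sources used here. The mESC replicates were deposited as tables with different gene lists, and only the shared genes were tested. ATAC and ChIP columns were assigned to conditions from their abbreviated names.

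Tests were edgeR 4.0.16 (limma 3.58.1, R 4.3.3) quasi-likelihood tests with TMM, filterByExpr and Benjamini-Hochberg adjustment over all genes, with 1 model for the 20 mESC libraries. DESeq2 1.42.0 was an alternative, along with other normalisation, filters, a replicate block, fold thresholds, peak windows and leaving out each library. Scripts were tested on simulated data. Each standard error is the log2 change over the root of its F value. Counting intervals are 95% and exact, from pooled reads, and cover counting error only. The 2 libraries of a mESC condition varied with 2.77 to 7.64 times the sampling variance (median gene), more than counting error alone gives. Their tables had different gene lists, so this cannot tell whether a pair was 1 library sequenced again. A level at 0 in a group was set to 3 counts per library. For peaks, libraries were brought to equal totals and 1 was added before logarithms. Libraries held 6109353 and 8277850 ATAC counts, 5550846 and 6223794 mESC ChIP counts and 3387074 and 4357448 RMES ChIP counts on mm10. Positions are from GENCODE on GRCm38, the assembly of mm10. Other steps used Python 3.11.15. The genes named are the 10 members, Cdx2, a list of 20 intestinal genes (1 of them is not reported here) and, for members with a mean of at least 50 counts, the 3 most correlated genes.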

Additional observations from a re-analysis of the deposited data

Results flagged for a closer look

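Of the 6 members tested, 4 responded differently on the mouse and rat alleles of RMES cells by a test of the difference itself (edgeR), where 62.1% of all 13605 paired genes did, so the count is near that of all genes. The rat minus mouse difference in log2 fold change was 4.36 for Gpa33, -4.44 for Muc13, -1.75 for Vil1 and 3.57 for Isx. For Gpa33 and Muc13 the sign held without each of the 4 libraries in turn, at 4.05 to 4.67 and -4.51 to -4.43. That of Isx ranged from 1.41 to 6.90 and was not called without WT replicate 2 or without the rCDX2 OE library.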

How the results depend on the processing

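Of 1206 alternative values, 1099 were rated the same. Of these, 676 kept their direction and call, and 423 were counts or shares that moved by no more than 1.5 times. Such a count could still change, as with 4 members higher in place of 5 for rCDX2 OE without either replicate. Left out were single members in the joint tests, changes 1 and 2 and the mean of all constructs. Isx and Krt20 in each mutant against WT, and Cdh17 and Krt20 in the allele difference, were also left out. Counts of members called moved by over 1.5 times with DESeq2 for rCDX2_R1 and rCDX2_R3 (1 member higher in each in place of 2, without Muc2), for change 3 (0 members lower in place of 2) and for the allele difference (1 higher in place of 2, without Isx). Without the filter on low counts or with only the 4 libraries compared, rCDX2_R3 had 1 member higher, and with the latter rCDX2_R13 had 0 lower in place of 1. Without the fold threshold rCDX2_R2 had 2 higher in place of 1. Leaving out 1 replicate gave 1 member higher for rCDX2_R1, 0 to 1 for rCDX2_R3, 1 to 2 for rCDX2_R12, rCDX2_R23 and rCDX2_R123, 0 to 1 lower for rCDX2_R13, 1 to 2 lower for change 3, 3 to 5 higher on the rat allele and 1 to 2 higher for the allele difference. Leaving out 1 replicate turned the sign of 4 small differences that were not called: mCDX2 OE over rCDX2 OE of Krt20 (-0.70 to 0.23) and Muc13 (-0.90 to 0.88), and mutants over intact proteins of Gpa33 (-0.01 to 0.05) and Muc2 (-0.26 to 0.41). The cause was not tested.

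Replicate numbers did not pair all the samples: deviations of the 45 pairs of conditions correlated at -0.14 to 0.453 (median -0.00266), and 21 of them were over 0.1. Cdx2 was higher in replicate 1 in every mutant. A replicate shift shared by only part of the conditions was not tested. With the replicate number as a block, 88 of 89 results were rated the same by the rules above, and only the call of Muc2 in rCDX2_R123 was lost (log2 1.17, adjusted p = 0.0581).

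Peak numbers follow the window. Near the members, opened ATAC peaks numbered 8, and 13 without scaling, 1 at 100 scaled reads, 3 within 10 kb and 15 within 100 kb. Closed peaks numbered 4, and 2, 1, 2 and 14 in the same order. Cdx2 peaks numbered 25 in mESCs and 12 in RMES cells, 9 and 3 within 10 kb, 63 and 40 within 100 kb, and 9 and 5 at 100 reads, and members with a peak in RMES cells 7, 3 within 10 kb and 4 at 100 reads. The motif share was 84% in whole peaks too, where all peaks had 81.1%. No call could be made at this depth for Hnf4g, Tff3 and Sis in any table, nor for Cdh17 on the mouse genome.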
